A study of Mus musculus with 194 samples.

Results

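Calling card insertions in the cortex of 4 mice labelled Syn1Cre, SP1 and P28 were set against those in the cortex of 6 mice labelled Syn1Cre alone. The members are these 10 animals, chosen by their labels, of 47 deposited tables in the whole series. Calling cards record where a transposase has been: it leaves a reporter transposon in nearby TTAA sequences. The 4 SP1 P28 animals were read as collected on postnatal day 28 from that label. The labels give no age at collection for the Syn1Cre animals and describe neither the transposase nor the SP1 construct. In calling cards a factor's name stands for the piggyBac transposase fused to that factor, and a group with no factor name for the unfused transposase. Both groups carried the Syn1Cre allele, a transgene used to express Cre in neurons, and both received adeno-associated virus on postnatal day 0 to 1. Each cortex was cut into 10 pieces whose RNA was isolated apart, and self-reporting transposons were read from that RNA. A further pair of groups is used only as levels beside these: 3 Syn1Cre animals labelled SP1 and P10 (postnatal day 10), with the same label as the P28 group but for the age, and 2 C57bl6J mice given Cre-independent viruses, with no factor named.

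SP1 is a zinc finger transcription factor made in nearly all cells. It binds GC boxes, short G-rich motifs with the core GGGCGG, which are common in the promoters of housekeeping genes and in CpG islands. Unfused piggyBac is known to insert near active enhancers, many of which lie far from promoters and belong to genes of the cell's own identity. An insertion was 1 line of a table, a promoter was the stretch within 1 kb of a listed RefSeq start site of a protein-coding gene on chromosomes 1 to 19 of GRCm38, and a gene's locus was its span with 10 kb on each side. Levels are normalised counts in CPM, the count of insertions scaled to each animal's total on these chromosomes after TMM scaling. The TMM factors of the 10 compared animals ran from 0.9075 to 1.245. SP1 P10 and C57bl6J animals had no TMM factor, and their levels are scaled to the total alone.

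The promoters at both ends of the comparison differ in the letters they hold. The 250 bases upstream of the start site follow, 5′ to 3′ in the direction of the gene, from RefSeq sequence of GRCm38.p6, with every GC box (GGGCGG or its complement CCGCCC) and every TTAA in capitals. Limk1 and Arhgap15 have 2 listed starts, and Lims1 and Add3 have 3. For these the start with the most SP1 P28 insertions is shown, while their promoter counts take in all listed starts. Among promoters with a mean count at or above the median of those tested and groups that did not overlap, the first group holds the 4 with the highest log2 fold change: Abhd17a at chr10:80590342-80590591 (- strand), Paqr3 at chr5:97111597-97111846 (- strand), Limk1 at chr5:134688591-134688840 (- strand) and Abcb9 at chr5:124095799-124096048 (- strand).
Abhd17a: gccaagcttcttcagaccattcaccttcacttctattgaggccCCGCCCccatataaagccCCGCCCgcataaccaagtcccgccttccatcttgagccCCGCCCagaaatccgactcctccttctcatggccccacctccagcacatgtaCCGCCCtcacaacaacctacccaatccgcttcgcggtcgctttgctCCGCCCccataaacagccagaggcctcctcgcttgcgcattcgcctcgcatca
Paqr3: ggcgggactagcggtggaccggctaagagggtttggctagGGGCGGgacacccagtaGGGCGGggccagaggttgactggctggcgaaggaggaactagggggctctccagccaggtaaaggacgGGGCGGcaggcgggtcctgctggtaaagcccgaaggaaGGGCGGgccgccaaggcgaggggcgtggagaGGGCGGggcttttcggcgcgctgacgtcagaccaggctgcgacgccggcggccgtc
Limk1: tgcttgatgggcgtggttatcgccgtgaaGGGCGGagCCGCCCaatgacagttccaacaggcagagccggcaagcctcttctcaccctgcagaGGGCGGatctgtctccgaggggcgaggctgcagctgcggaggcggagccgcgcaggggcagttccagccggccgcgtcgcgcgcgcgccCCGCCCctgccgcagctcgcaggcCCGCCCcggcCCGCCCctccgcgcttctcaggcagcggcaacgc
Abcb9: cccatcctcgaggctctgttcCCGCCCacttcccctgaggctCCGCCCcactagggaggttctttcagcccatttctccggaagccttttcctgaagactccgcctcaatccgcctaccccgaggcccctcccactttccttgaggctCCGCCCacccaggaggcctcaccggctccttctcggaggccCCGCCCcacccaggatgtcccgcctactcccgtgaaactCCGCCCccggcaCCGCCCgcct
These hold 5, 5, 6 and 6 GC boxes and no TTAA, so no insertion could be recorded within these bases, and the insertions at these promoters lay further out. The second group holds the 2 promoters with the highest normalised count in the SP1 P28 animals, Lims1 at chr10:58323297-58323546 (+ strand) and Add3 at chr19:53140193-53140442 (+ strand).
Lims1: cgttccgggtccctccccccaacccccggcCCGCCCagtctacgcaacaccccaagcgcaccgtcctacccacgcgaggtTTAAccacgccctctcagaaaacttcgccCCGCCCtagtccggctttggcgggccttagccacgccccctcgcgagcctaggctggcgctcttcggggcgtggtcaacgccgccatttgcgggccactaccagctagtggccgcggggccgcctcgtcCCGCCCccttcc
Add3: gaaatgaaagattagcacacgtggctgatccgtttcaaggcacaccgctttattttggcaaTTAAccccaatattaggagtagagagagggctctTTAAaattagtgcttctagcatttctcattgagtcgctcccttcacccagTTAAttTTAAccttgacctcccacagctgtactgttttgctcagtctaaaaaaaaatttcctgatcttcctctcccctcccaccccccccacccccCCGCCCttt
Lims1 has 3 GC boxes and 1 TTAA, and Add3 has 1 GC box and 4 TTAA. The last group holds the 2 with the lowest log2 fold change under the same limits, Arhgap15 at chr2:43787105-43787354 (+ strand) and Neurod6 at chr6:55681264-55681513 (- strand).
Arhgap15: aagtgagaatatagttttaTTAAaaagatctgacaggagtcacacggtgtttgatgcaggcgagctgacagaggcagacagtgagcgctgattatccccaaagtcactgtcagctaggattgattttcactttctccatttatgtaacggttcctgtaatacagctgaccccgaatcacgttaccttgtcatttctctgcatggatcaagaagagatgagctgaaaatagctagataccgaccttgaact
Neurod6: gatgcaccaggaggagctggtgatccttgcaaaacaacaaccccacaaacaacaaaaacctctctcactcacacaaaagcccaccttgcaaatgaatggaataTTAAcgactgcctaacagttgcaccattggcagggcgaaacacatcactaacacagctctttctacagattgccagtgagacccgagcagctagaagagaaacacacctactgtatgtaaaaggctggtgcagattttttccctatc
Neither has a GC box, and each has 1 TTAA. In these 250 bases the Arhgap15 promoter took 3 insertions over the 4 SP1 P28 animals and 57 over the 6 Syn1Cre animals, and the Neurod6 promoter 2 and 23.

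The groups differed in depth. Each SP1 P28 animal had 108965 to 577609 insertions and each Syn1Cre animal 443158 to 1364948, at 21.2 to 33.5 and 2.99 to 20.7 reads per insertion. Lines with a single read made up 6.99 to 8.71% of the SP1 P28 tables and 10.0 to 44.5% of the Syn1Cre tables. SP1 P28 and Syn1Cre animals were sequenced in separate pools, and an effect of the pool cannot be told apart from that of the group. Several pools held SP1 P28 and SP1 P10 animals together, so the SP1 P10 levels carry the same limit. Nothing in the labels says from which litters the animals came, and p-values measure the spread between these animals. Every insertion that fell in the RefSeq promoter sequences lay on a TTAA (98535 of 98535). Syn1Cre animal 5, the shallowest of its group, stood apart at astrocyte genes: at the locus of Gja1, which encodes the astrocyte gap junction protein connexin 43, it had a normalised count of 148 against 25.8 to 65.8 in the other Syn1Cre animals. Insertions come from whole cortex tissue, so fewer cells of a type and fewer insertions per cell cannot be told apart.

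A larger share of insertions lay at start sites in the SP1 P28 animals than in the Syn1Cre animals. The share within 1 kb of a listed start site was 16.03%, 19.02%, 17.77% and 13.22% in the 4 SP1 P28 animals. In the Syn1Cre animals it ran from 4.65% through a median of 5.13% to 6.05%, so the groups lay far apart without overlap. The means were 16.5% ± 2.51 (SD, n = 4) and 5.21% ± 0.481 (SD, n = 6), a ratio of 3.17 and a difference of 11.3 percentage points. The exact two-sided permutation test over 210 splits gave p = 0.00476, the smallest it can give, and 0.00762 after Benjamini-Hochberg adjustment over 8 classes. These stretches make up 1.46% of the length of chromosomes 1 to 19. Within each group the share was lower in every deeper animal. SP1 P28 animal 2 with 106446 insertions on these chromosomes had 19.02%, and animal 4 with 564530 had 13.22%. Syn1Cre animal 5 with 432664 had 6.05%, and animal 4 with 1332946 had 4.65%. The difference was 11.4 points with all animals thinned to 106446 insertions. Other effects of depth were not tested. The difference was 7.04 points where each position counted once per animal. The share was 17.9 to 19.8% in the SP1 P10 animals and 4.11 to 4.27% in the C57bl6J animals.

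Along the distance from the start site, the SP1 P28 insertions formed a sharp peak just upstream. It reached 1.70% of all insertions in the 100 bases from 300 to 200 upstream, while the Syn1Cre profile was highest, at 0.466%, from 500 to 400 upstream. The ratio of the groups was highest in the 100 bases that end at the start site, at 5.25. Animals of the groups did not overlap in 53 of 60 bins of 100 bases within 3000 bases of the start. The kilobase upstream held 11.6% ± 1.95 (SD, n = 4) of SP1 P28 insertions and the kilobase downstream 4.93% ± 0.571, against 3.47% ± 0.320 (SD, n = 6) and 1.73% ± 0.165 in Syn1Cre. Of the insertions on both sides, 70.0% ± 1.26 lay upstream in SP1 P28 and 66.7% ± 0.612 in Syn1Cre (exact two-sided permutation p = 0.00476).

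**Figure D1:**
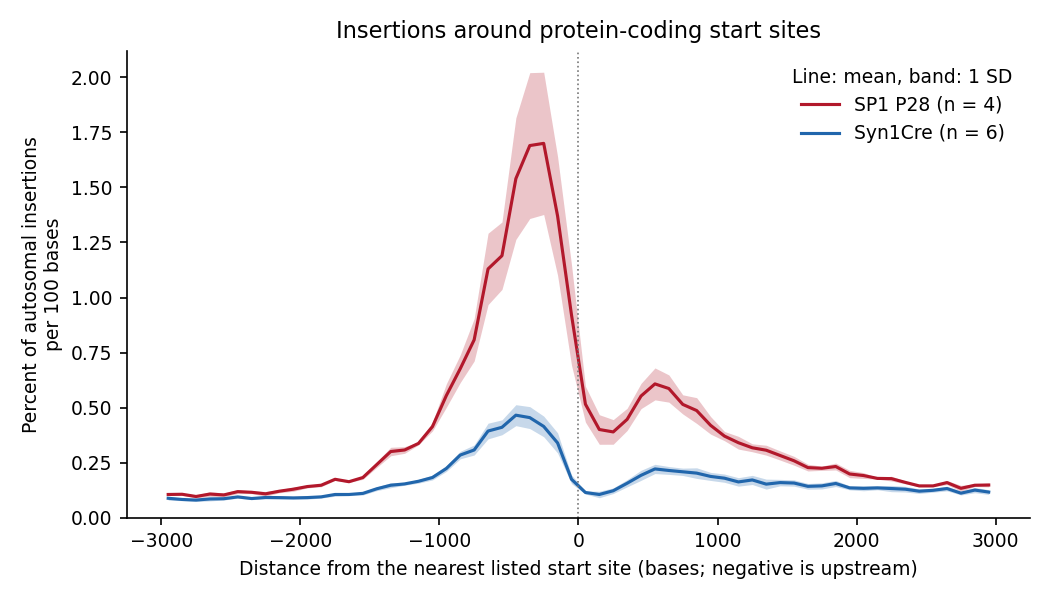
Share of each animal's insertions (percent) in bins of 100 bases by distance from the start site (bases, negative upstream), with the group mean as a line and 1 SD as a band for SP1 P28 (n = 4) and Syn1Cre (n = 6). The SP1 P28 mean peaks at 1.70% between 300 and 200 bases upstream, where the Syn1Cre mean stays under its own highest value of 0.466%.

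The other classes of the genome divided by distance from genes. Genes with no listed start site, counted within 1 kb of either end, took 3.73% ± 0.462 (SD, n = 4) of insertions in SP1 P28 and 1.57% ± 0.105 (SD, n = 6) in Syn1Cre (exact two-sided permutation p = 0.00476, adjusted 0.00762). The 3′ ends differed far less, at 1.98% ± 0.0755 and 1.82% ± 0.0997 (exact permutation p = 0.0286, adjusted 0.0327). That difference passes the threshold only in part of the alternatives: without SP1 P28 animal 4 it was 0.125 points with an exact p of 0.0952, and without animal 2 it was 0.150 points with an exact p of 0.0714.

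In gene bodies and over 50 kb from a gene, the SP1 P28 animals held a smaller share of their insertions. The rest of gene bodies took 45.6% ± 1.35 (SD, n = 4) against 53.5% ± 1.35 (SD, n = 6), and every SP1 P28 animal lay below every Syn1Cre animal. From 50 to 200 kb outside a protein-coding gene the shares were 7.22% ± 0.523 and 9.64% ± 0.308. Beyond 200 kb they were 4.95% ± 0.371 and 8.56% ± 0.483, so SP1 P28 had 0.579 times the Syn1Cre share there. Each of these 3 differences had an exact permutation p of 0.00476 (adjusted 0.00762).

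Nearer to genes the picture was mixed. Up to 10 kb from a gene the SP1 P28 share was 10.7% ± 0.513 (SD, n = 4) against 9.50% ± 0.735 (SD, n = 6), which passed the threshold (exact permutation p = 0.0286, adjusted 0.0327). From 10 to 50 kb it was 9.29% ± 0.721 against 10.2% ± 0.641, which did not (exact permutation p = 0.0905, adjusted 0.0905). Without SP1 P28 animal 4 the difference in that class was -1.23 points (exact p = 0.0238), and without Syn1Cre animal 5 it was -1.07 points (exact p = 0.0397). All insertions over 10 kb from a protein-coding gene made up 21.1%, 20.4%, 20.5% and 23.8% in the SP1 P28 animals and 26.4 to 28.9% in the Syn1Cre animals.

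**Figure D2:**
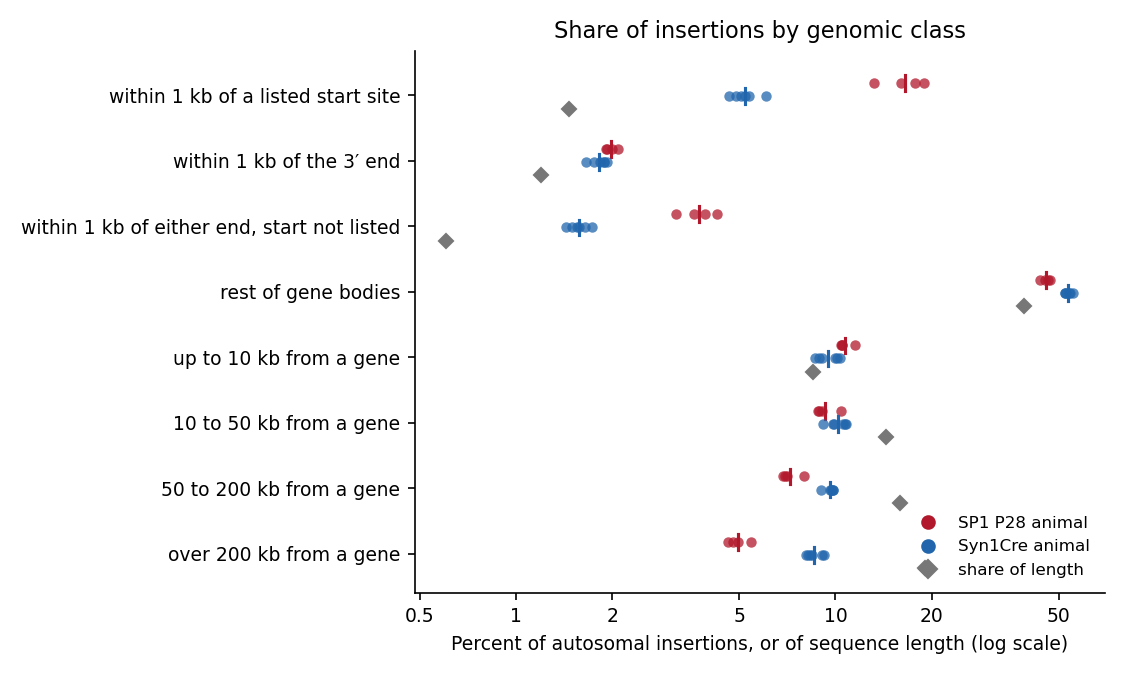
Share of insertions (percent, log axis) in each of 8 classes of the genome, 1 point per animal with the group mean as a bar, for SP1 P28 (n = 4) and Syn1Cre (n = 6), and a diamond for the class's share of sequence length. SP1 P28 animals sit at 13.22 to 19.02% near listed start sites where Syn1Cre animals sit at 4.65 to 6.05%, and lower in gene bodies and beyond 50 kb from a gene.

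Most promoters that could be tested were higher in SP1 P28. Of 16457 genes with a listed start, 2411 promoters passed the low-count filter, which asked for about 15.4 CPM in at least 4 animals. Of these, 2008 were higher in SP1 P28 (83.3% of those tested) and 29 were lower (1.20%) by edgeR's quasi-likelihood test at a Benjamini-Hochberg adjusted p under 0.05. The animals of the groups did not overlap at 1734 promoters with higher (71.9%) and at 17 with lower counts (0.705%) in SP1 P28. The median log2 fold change of tested promoters was 1.86, with quartiles at 0.95 and 2.99. Among the higher promoters, 1114 changed at least 4-fold and 69 at least 32-fold.

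The filter favoured promoters with insertions in SP1 P28, since 1605 of the tested promoters reached its level in the SP1 P28 animals alone. Among the 620 that reached it in the Syn1Cre animals, 387 were higher (62.4%) and 28 lower (4.52%). With no filter, 12310 promoters were tested, of which 3590 were higher (29.2%) and 114 lower (0.926%). Where each position counted once per animal, 302 promoters were left to test and 227 of them were higher, since a promoter holds few TTAA sites and a busy site then counts once. The 2008 higher promoters together held 10.2%, 12.9%, 11.7% and 7.47% of insertions in the SP1 P28 animals and 1.87 to 2.67% in the Syn1Cre animals. In animals that took no part in the test the same promoters held 11.8 to 13.7% (SP1 P10) and 1.59 to 1.70% (C57bl6J). SP1 P10 animals shared sequencing pools with SP1 P28 animals.

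Among promoters with a mean count at or above the median and groups that did not overlap, Abhd17a had the highest log2 fold change. It encodes a depalmitoylase, an enzyme that removes palmitate from membrane proteins. Its normalised counts were 114, 106, 135 and 56.0 in the SP1 P28 animals, while the Syn1Cre animals ran from 0 through a median of 0.411 to 1.40. The log2 fold change came to 6.85 ± 0.42 (SE; edgeR adjusted p = 3.61e-18). The 95 insertions in SP1 P28 lay at 4 TTAA sites, and 1 site 527 bases upstream held 58.9% of them.

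Paqr3 encodes a Golgi membrane protein that can hold the kinase Raf-1. The SP1 P28 animals had 67.7, 67.9, 101 and 78.4 CPM at its promoter, and the Syn1Cre animals 0 to 1.76 with a median of 0. The groups lay apart by a log2 fold change of 6.64 ± 0.40 (SE; edgeR adjusted p = 1.69e-18). Its 85 SP1 P28 insertions were spread over 5 TTAA sites, the busiest 788 bases upstream.

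Limk1 encodes a kinase that phosphorylates the actin-severing protein cofilin. Its promoter counts were 102, 128, 129 and 54.1 CPM in SP1 P28 and 0 in 4 of the 6 Syn1Cre animals, with 1.28 and 2.47 in the other two. The log2 fold change came to 6.50 ± 0.43 (SE; edgeR adjusted p = 2.89e-17), on 93 insertions at 3 TTAA sites in SP1 P28 against 4 insertions in Syn1Cre. With both gene ends counted, its level was 227 ± 35.9 (SD, n = 4) against 5.54 ± 2.22 (SD, n = 6).

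Abcb9, a lysosomal peptide transporter, had 97.3, 121, 84.2 and 67.2 CPM at its promoter in SP1 P28. No Syn1Cre animal exceeded 1.76, and the log2 fold change came to 6.17 ± 0.37 (SE; edgeR adjusted p = 1.33e-18). The insertions lay at 6 TTAA sites, with the busiest 546 bases upstream.

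The next 8 promoters came from several branches of general cell biology. Plrg1 encodes a splicing factor of the Prp19 complex, and its counts of 135, 189, 208 and 118 CPM lay above the 0 to 5.76 of Syn1Cre by a log2 fold change of 5.91 ± 0.33 (SE; edgeR adjusted p = 2.45e-19). Mcm9 encodes a helicase of recombination repair, and it had 216, 287, 258 and 175 CPM against 0.823 to 9.40, a log2 fold change of 5.84 ± 0.28 (SE). Papolg, a nuclear poly(A) polymerase, had a log2 fold change of 5.78 ± 0.39 (SE), and so did Eml2, a microtubule-binding protein, at 5.78 ± 0.39. All 4 had groups that did not overlap. Vps4a, the ATPase that takes ESCRT-III filaments apart, had a log2 fold change of 5.75 ± 0.44 (SE), and Ankrd35, an ankyrin repeat protein, one of 5.97 ± 0.41. Peli3, an E3 ubiquitin ligase, and Rtn2, a reticulon that shapes the endoplasmic reticulum, followed at 5.54 ± 0.40 and 5.54 ± 0.44. Over these 12 promoters the number of TTAA sites used in SP1 P28, around the listed start with the most insertions, ran from 2 at Eml2 to 13 at Mcm9.

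The same promoters were at comparable or higher levels in the SP1 P10 animals, whose levels carry no TMM factor. Abhd17a had 177 to 251 CPM there, Limk1 177 to 239 and Mcm9 342 to 451. In the C57bl6J animals the 3 promoters had at most 1.32 CPM.

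By level and not by fold, Lims1 was the promoter with the most insertions in SP1 P28. It encodes PINCH1, an adaptor of focal adhesions. The SP1 P28 animals had 368, 407, 421 and 244 CPM and the Syn1Cre animals 28.2 to 41.4 with a median of 34.0. The log2 fold change came to 3.32 ± 0.19 (SE; edgeR adjusted p = 2.11e-19). Add3, an adducin of the spectrin and actin skeleton, had 347, 400, 449 and 235 against 45.8 to 110, a log2 fold change of 2.52 ± 0.20 (SE). Ntmt1, a methyltransferase of protein N-termini, reached a mean of 302 against 22.8 CPM, and Fbrs 276 against 17.1. Akap7, an anchor of protein kinase A, had the highest Syn1Cre level of the 5, at 125 ± 23.3 (SD, n = 6), and its log2 fold change of 1.20 ± 0.18 (SE; edgeR adjusted p = 4.36e-08) was the smallest.

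Among the lower promoters were those of a neuronal transcription factor and a cadherin. Arhgap15, a GTPase-activating protein of Rac, had 12.7, 7.55, 28.1 and 3.73 CPM in SP1 P28 and 30.0 to 65.8 in Syn1Cre with a median of 46.4. The log2 fold change came to -2.13 ± 0.40 (SE; edgeR adjusted p = 6.95e-06), and every SP1 P28 animal lay below every Syn1Cre animal. Neurod6, a transcription factor of cortical pyramidal neurons, had 8.46, 15.1, 28.1 and 39.2 against 79.6 to 103, a log2 fold change of -1.72 ± 0.27 (SE; edgeR adjusted p = 2.52e-07). Its 452 Syn1Cre insertions lay at 18 TTAA sites. Cdh9, a classical cadherin, had a log2 fold change of -1.46 ± 0.33 (SE) and Gpr22, an orphan receptor, one of -1.26 ± 0.27. Mgat4c, of a family that branches N-glycans, had one of -1.25 ± 0.26 (SE). The SP1 P10 animals had 0 to 11.8 CPM at Arhgap15 and 10.7 to 23.5 at Neurod6, but 11.8 to 91.2 at Cdh9.

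**Figure D3:**
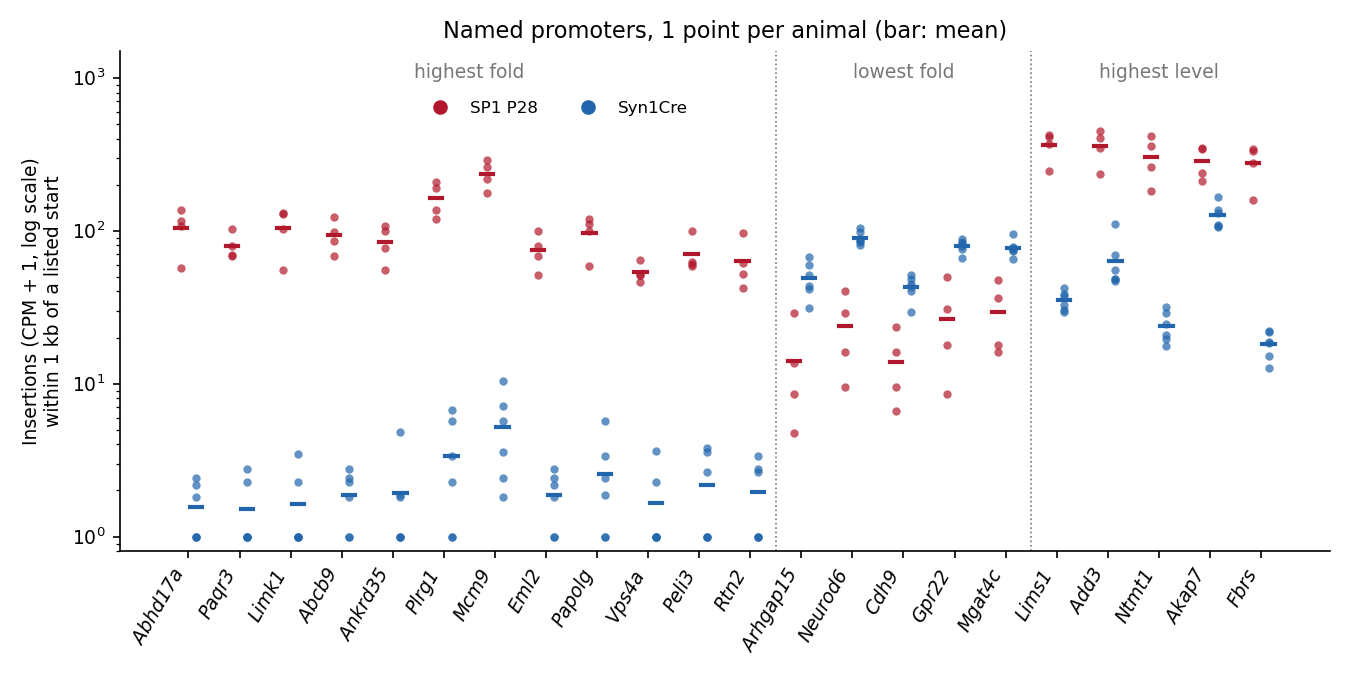
Normalised insertion count (CPM plus 1, log axis, bar at the mean) at the named promoters, 1 point per animal for SP1 P28 (n = 4) and Syn1Cre (n = 6). The 12 promoters with the highest fold change among those at or above the median count have Syn1Cre animals at 0 to 9.40 CPM, Lims1 and Add3 reach over 400 in SP1 P28, and at Arhgap15 and Neurod6 the SP1 P28 animals lie below the Syn1Cre animals.

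Limk1, Foxh1 and Tubb6 are given as marks of this comparison, chosen on these data, and only Limk1 has a listed start. The other two were therefore read at gene ends, where 3275 genes were tested by edgeR, 2488 were higher in SP1 P28 (76.0%) and 74 lower (2.26%). With no filter 17565 gene ends were tested, of which 3652 were higher (20.8%) and 294 lower (1.67%). Foxh1 encodes a forkhead partner of Smad proteins. Within 1 kb of its gene ends the SP1 P28 animals had 38.1, 52.8, 44.9 and 42.9 CPM and the Syn1Cre animals 1.17 to 9.40, a log2 fold change of 3.80 ± 0.37 (SE; edgeR adjusted p = 6.94e-13). The genes Kifc2 and Ppp1r16a lie within 2 kb of it, so its insertions cannot be assigned to 1 gene. Tubb6, a beta-tubulin, did not bear the mark. All 10 animals had 0 insertions within 1 kb of its ends, where a count of 0 allows up to 3 insertions per group, and its locus was too thinly filled to test (6.66 ± 7.17 against 8.93 ± 3.66 CPM, SD). Its neighbour Afg3l2, a mitochondrial protease, had 267, 347, 314 and 162 CPM at its ends in SP1 P28 against 7.04 to 12.8, a log2 fold change of 4.79 ± 0.23 (SE; edgeR adjusted p = 1.23e-22). The Tubb6 locus takes in the nearer end of Afg3l2 and held 11 SP1 P28 insertions, against 252 at both ends of Afg3l2. Most of these 252 therefore lay at the end of Afg3l2 far from Tubb6. Afg3l2 was examined after the values at Tubb6 were seen. The gene ends of Foxh1 and Afg3l2 reached the filter's level in the SP1 P28 animals alone.

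GC boxes in the promoter went with the size of the gain. For 13797 genes with a single listed start, the motif GGGCGG was searched on both strands in the 300 bases from 250 upstream to 50 downstream. Summed over all 7401 promoters with no GC box, the SP1 P28 level was 1.85 times the Syn1Cre level. The ratio was 2.58 for 1 box, 3.51 for 2, 4.30 for 3 and 5.89 for 4 or more. It was larger with each added box in every SP1 P28 animal: in animal 4 from 1.78 with no box to 5.01 with 4 or more, and in animal 3 from 1.94 to 6.41.

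GC boxes also go with base composition, so the promoters were divided into 3 equal tertiles by GC percent, at 51.0 and 61.7%. In the middle tertile the ratio ran from 2.02 with no box through 2.56, 3.72 and 4.66 to 7.27 with 4 or more. The median GC percent of these sets went from 55.3 to 59.3%. In the highest tertile the ratio ran from 2.14 to 5.81 and the median GC percent from 65.3 to 71.7%. In the lowest tertile the ratio was 1.51 with no box and 2.05 with 1 box. Within a tertile the sets were not matched for GC percent or CpG count, and the part of these was not tested. Animals of the groups did not overlap in any of these sets. These are sums over promoters, given as a description, and the promoters of neighbouring genes can share insertions.

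**Figure D4:**
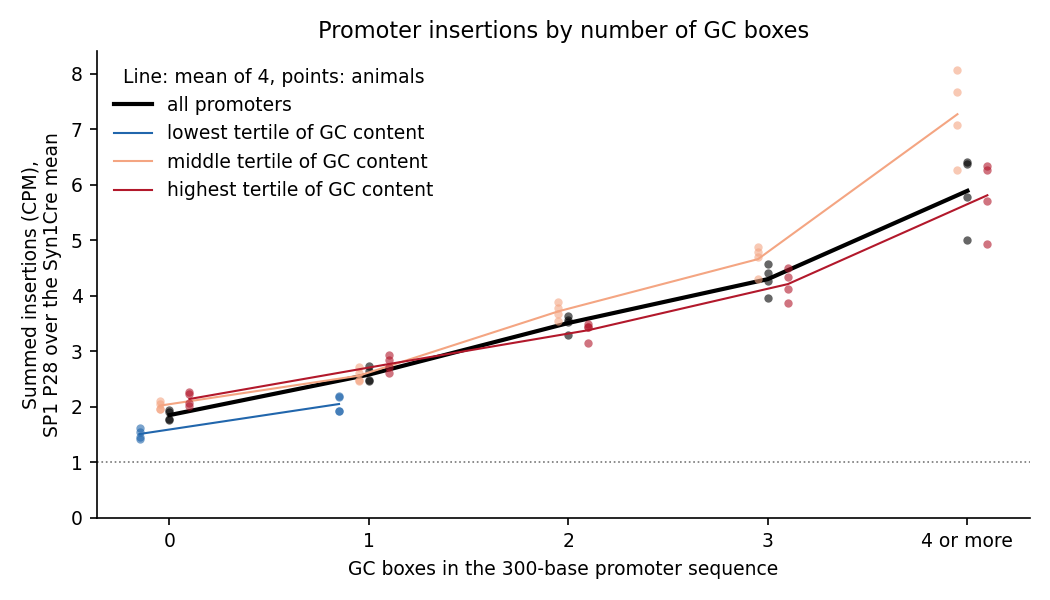
Ratio of each SP1 P28 animal's summed promoter count to the Syn1Cre mean, by number of GC boxes in 300 bases of promoter sequence (points: animals, lines: mean), for all promoters and within tertiles of GC percent. In all promoters the mean ratio goes from 1.85 with no box to 5.89 with 4 or more, and within the middle tertile from 2.02 to 7.27.

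The ratio differed less between promoters with and without the motifs of other factors. Promoters with CCAAT, the box bound by NF-Y, had a summed ratio of 3.12 and those without it 2.75. The ratio was 2.28 with TATAAA and 2.95 without, and 2.45 with the 10-base palindrome of NRF1 and 2.91 without. For CCGGAAGT, an ETS site, it was 2.20 and 2.97, for TGACGTCA, the cAMP response element, 2.41 and 2.92, and for CACGTG, the E-box, 2.65 and 2.92. Promoters with at least 1 GGGCGG had a ratio of 3.59 and those without 1.85. These sets were not matched for base composition. The median GC percent was 64.0 with GGGCGG and 49.0 without, 54.7 and 57.3 for CCAAT, and 44.3 and 58.0 for TATAAA. These motifs were searched on both strands in the same 300 bases, where matches of different motifs may overlap. GGGCGG was present in 46.4% of all 13797 promoters, in 79.0% of the 1450 called higher, in 53.9% of the 258 tested but not called, and in 23.5% of the 17 called lower.

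Gene classes were described by the number of promoters called, beside the 83.3% called higher over all those tested, and by their summed level, beside a ratio of 2.78 over all 16457 promoters. Many members named as highest, Eif2ak4 and Tuba4a among them, reached the filter's level in the SP1 P28 animals alone. Among the machinery of every cell, the cytoplasmic ribosomal proteins had 10 of 12 tested promoters higher and none lower, the same share as all promoters, and a summed ratio of 2.36. Counts of so few promoters move with single animals, and a list's count without an animal is given where it changed by over 1.5 times. Without Syn1Cre animal 4, 6 of 11 ribosomal protein promoters were higher and 1 lower. Rps16 of the small subunit had a log2 fold change of 3.97 ± 0.45 (SE), while Rpl34 at -0.56 ± 0.36 was not called. Proteasome subunits had 6 of 7 higher with a summed ratio of 2.97, led by the lid subunit Psmd12 at a log2 fold change of 4.34 ± 0.35. Ubiquitin-conjugating enzymes had 6 of 7 higher with a ratio of 3.23, with Ube2r2 at 5.46 ± 0.55 and Ube2k, not called, at 0.20 ± 0.32.

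Translation initiation factors had 7 of 9 higher and none lower, with a summed ratio of 2.28. Eif2ak4, the kinase GCN2 that senses uncharged tRNA, had a log2 fold change of 6.98 ± 0.51 (SE; edgeR adjusted p = 4.59e-16), with 0 to 0.881 CPM in the Syn1Cre animals. All 4 tested aminoacyl-tRNA synthetase promoters were higher, from Qars at 0.67 ± 0.28 to Lars2 at 3.07 ± 0.37, although without any 1 of Syn1Cre animals 1, 2, 3, 4 and 6 only 3 were tested and 2 higher. Splicing factors had 8 of 11 higher, RNA polymerase subunits and general transcription factors 3 of 5, and chaperonins and heat shock proteins 8 of 10, with none lower. For the polymerase list it was 5 of 6 without SP1 P28 animal 1 and 5 of 7 without animal 2. Their highest members were Hnrnpa1 at 3.65 ± 0.38, Taf8 at 2.05 ± 0.37 and Hspb11 at 4.81 ± 0.32.

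Genes of mitochondria had the lowest summed ratios among the housekeeping lists. Mitochondrial ribosomal proteins had 5 of 12 promoters higher, 7 not called and a summed ratio of 1.75. Without SP1 P28 animal 1 or 2, 8 of 13 and 8 of 14 were higher. Nuclear oxidative phosphorylation subunits had 6 of 9 higher and 2 lower, with a ratio of 1.63. The lower calls rest on single animals: none was left without SP1 P28 animal 1, 2 or 4 (6 of 10, 8 of 13 and 6 of 10 higher), and 1 without animal 3, under DESeq2 or with no TMM factor. There Ndufv3 of complex I rose with a log2 fold change of 5.01 ± 0.48 (SE; edgeR adjusted p = 1.14e-12) and Ndufa12 of the same complex had one of -0.92 ± 0.36 (SE; edgeR adjusted p = 0.0176) with groups that overlapped.

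Tubulins had the highest summed promoter ratio of the class lists, at 4.77, with 351 to 584 CPM in SP1 P28 and 87.2 to 118 in Syn1Cre. All 6 tested tubulin promoters were higher. Tuba4a had a mean of 48.7 ± 16.3 CPM (SD, n = 4), against 0 to 1.28 in Syn1Cre animals that did not overlap with it (log2 fold change 6.14 ± 0.51, SE; edgeR adjusted p = 3.11e-14). Tubb5 was higher by 4.73 ± 0.52 and Tubb3, the neuronal beta-tubulin, by 3.50 ± 0.29, while Tubb4b at 1.51 ± 0.37 was the lowest of the 6. The Sp and Klf factors, the family of SP1 itself, had 4 of 4 tested promoters higher and a summed ratio of 4.26. Sp4 led at 4.26 ± 0.38 and Klf9 was lowest at 1.46 ± 0.28. At the locus of Sp1, which has no tested promoter, the SP1 P28 animals had 436, 566, 460 and 355 CPM and the Syn1Cre animals 70.5 to 92.2 (log2 fold change 2.43 ± 0.16, SE; edgeR adjusted p = 3.76e-13). Insertions at the locus do not measure how much SP1 the cells made.

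Cyclins and cyclin-dependent kinases had 5 of 7 promoters higher, with the G1 cyclin Ccne1 at a log2 fold change of 4.98 ± 0.49 (SE). The large Zfp family of zinc finger proteins had 32 of 44 higher and 4 lower, from Zfp78 at 5.42 ± 0.38 to Zfp729a at -1.30 ± 0.48. Without SP1 P28 animal 1, 1 of 56 was lower. Genes silent in cortex gave no testable promoter. Of 1254 olfactory and vomeronasal receptor promoters, 1206 had no insertion in any SP1 P28 animal, and their summed level was 59.1 ± 16.1 CPM (SD, n = 4) against 116 ± 11.3 (SD, n = 6), a ratio of 0.508 with groups that did not overlap. Hox promoters had 0 insertions in SP1 P28 over 22 genes and at most 1.17 CPM in a Syn1Cre animal. Keratin promoters summed to 8.80 ± 3.01 and 14.8 ± 2.11 CPM.

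Over whole loci, which take in introns and flanks, the direction went with the gene's length. In genes under 10 kb the flanks make up most of the locus. Loci overlap and flanks can hold the promoters of neighbouring genes, so insertions at a locus may belong to a neighbour. Of 11727 loci tested, 4267 were higher in SP1 P28 (36.4%) and 1481 lower (12.6%) by edgeR, with a median log2 fold change of 0.28. That split moved with the processing: counting each position once per animal gave 1732 higher and 1712 lower, thinning all animals to the shallowest gave 619 and 909, and no filter gave 3182 and 2495 of 19598. Among genes under 10 kb long, 55.2% were higher and 5.21% lower. Among the 530 genes over 300 kb, 2.45% were higher and 70.4% lower, with a median log2 fold change of -0.72.

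The loci of glutamate receptors and of neuronal adhesion genes, many of them long, mostly had fewer insertions in SP1 P28. Glutamate receptors had 14 of 23 loci lower and 2 higher, with a median log2 fold change of -0.67 and a median length of 378 kb. Grin2a, an NMDA receptor subunit, had 140, 83.0, 135 and 183 CPM against 280 to 379 (log2 fold change -1.25 ± 0.18, SE; edgeR adjusted p = 1.45e-06). Grm7, a metabotropic receptor, was lowest at -1.34 ± 0.20, while the short gene Grin3b was higher at 3.20 ± 0.23. Of the 13 receptors over 300 kb long, 12 were lower, beside 70.4% over all genes of that length.

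Neuronal adhesion genes had 12 of 19 loci lower and 2 higher, with a median log2 fold change of -0.77 and a median length of 966 kb. Of the 15 over 300 kb long, 11 were lower, near the 70.4% lower over all genes of that length. Cntnap2, a neurexin-like protein of axons, was lowest at -1.54 ± 0.20 (SE), and its Syn1Cre animals had 1319 to 1885 CPM. In the other direction Nlgn2, the neuroligin of inhibitory synapses, had 140, 136, 208 and 138 CPM against 6.98 to 11.8, a log2 fold change of 4.02 ± 0.23 (SE; edgeR adjusted p = 2.08e-14). Cadherins and protocadherins had 14 of 27 lower and 3 higher, with Cdh12 at -1.56 ± 0.19 and Cdh15 at 1.40 ± 0.30. At their promoters 2 were higher and 2 lower of 7, and 1 was higher without SP1 P28 animal 1, with a median of -0.37 although the summed ratio was 1.17. The adhesion promoters likewise had a median of -0.13 and a summed ratio of 1.55, with 2 of 5 higher.

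GABA-A receptor subunits were higher at promoters and mostly lower over loci. All 5 tested promoters were higher, from Gabrg1 at 0.87 ± 0.31 (SE) to Gabra2 at 2.16 ± 0.38, while with Syn1Cre animals 4 to 6 as the only controls 3 of 5 were. Over loci 7 of 13 were lower and 1 higher, the short gene Gabrd at 1.62 ± 0.28. Over all loci tested 12.6% were lower and 36.4% higher, and among genes of 50 to 100 kb, 12.2% and 24.2%. Potassium channels had 6 of 9 promoters higher and 22 of 67 loci lower against 13 higher, with no TMM factor 21 loci were lower and 21 higher, and with Syn1Cre animals 1 to 3 as controls 35 of 65 were lower and 14 higher. Kcnip4, a partner of Kv4 channels, was lowest at -1.43 ± 0.19 and Kcnk6, a tandem-pore channel, highest at 2.94 ± 0.19. Genes of presynaptic vesicle release had 5 of 7 promoters higher and 1 lower, but without any 1 of Syn1Cre animals 1, 2, 3, 4 and 6 only 3 or 4 were tested, with 2 higher and at most 1 lower. Their loci were divided, with 8 higher and 7 lower of 23, a median of 0.12 and a summed ratio of 0.761. Rab3a was highest at 2.65 ± 0.21 and the calcium sensor Syt1 lowest at -1.25 ± 0.17.

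Transcription factors of cortical projection neurons had 12 of 21 loci lower and none higher. Foxp2 of deep layers had 220, 151, 286 and 146 CPM in SP1 P28 and 522 to 737 in Syn1Cre, a log2 fold change of -1.60 ± 0.19 (SE; edgeR adjusted p = 5.11e-08). Tbr1, a factor of layer 6, was lower at -1.32 ± 0.18, and neither gene had groups that overlapped. Nfia had the highest value, 0.41 ± 0.22, and was not called. Their promoters gave 3 higher and 2 lower of 8, a count that ran from 1 to 3 higher and 1 to 2 lower with 1 animal left out (1 and 1 of 7 without Syn1Cre animal 2 or 4). At Mef2c the promoter was higher (log2 fold change 0.57 ± 0.19, SE) while the locus was lower (-0.69 ± 0.16).

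Activity-dependent immediate early genes, with a median length of 4.29 kb, had 10 of 17 loci higher (58.8%) and 2 lower, with a median of 0.61. This is near the share over all genes under 10 kb, of which 55.2% were higher and 5.21% lower, with a median of 0.82. The balance among the immediate early genes rested on single animals and on the controls. Without SP1 P28 animal 4, 6 of 18 were higher and 3 lower, without Syn1Cre animal 2 6 of 17 and 3, and without Syn1Cre animal 4 5 of 17 and 3. With Syn1Cre animals 1 to 3 as controls it was 5 and 5 with a median of 0.12, and with at least 2 reads per insertion 4 and 4. Fos had 135, 106, 146 and 89.6 CPM against 32.1 to 41.1 (log2 fold change 1.60 ± 0.19, SE; edgeR adjusted p = 6.01e-08). Jund was highest at 1.79 ± 0.26 and Nr4a2 lowest at -1.12 ± 0.20. Interneuron genes, with a median length of 8.49 kb, had 6 of 13 loci higher (46.2%) and 3 lower. They ran from Gad1, which makes GABA, at 1.34 ± 0.20 to Erbb4 at -1.10 ± 0.18. With Syn1Cre animals 1 to 3 as controls 3 were higher and 3 lower, and with animals 4 to 6, 2 and 4.

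Cell type markers were set beside these classes. Over all loci tested 36.4% were higher and 12.6% lower. Neuron markers had 5 of 15 loci higher and 3 lower, with a median of -0.04, which was 0.13 with no TMM factor, and a summed locus level of 2913 to 3913 CPM in SP1 P28 and 3972 to 4424 in Syn1Cre. Without Syn1Cre animal 4, 4 were higher and 7 lower, and without animal 1, 2 or 3, 5 and 5. Astrocyte markers had 6 of 15 loci higher and none lower, with sums of 1997 to 3688 in SP1 P28 and 1211 to 4005 in Syn1Cre, so the groups overlapped. The count of higher astrocyte loci turned on single animals: it was 12 of 15 without Syn1Cre animal 5, 11 of 15 without SP1 P28 animal 4, 3 of 15 without SP1 P28 animal 3, and 2 without any other Syn1Cre animal. It was also 11 with no TMM factor, 3 under DESeq2 and 2 of 13 with Syn1Cre animals 4 to 6 as controls. All 4 tested astrocyte promoters were higher, with Gja1 at a log2 fold change of 2.31 ± 0.30 (SE), while 2 of 4 were without SP1 P28 animal 3 and 2 of 3 without Syn1Cre animal 1. Oligodendrocyte lineage markers had no insertion at 5 of 8 promoters in SP1 P28, microglia markers at 6 of 7 and endothelial markers at 5 of 6. Their loci gave 1 higher and 2 lower of 6 (2 and 2 of 7 without SP1 P28 animal 4 or Syn1Cre animal 5), 1 higher of 4, and none called of 4. The part of cell type makeup in the results was not tested.

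In 10 kb windows of the genome the groups differed in both directions. Of 16688 windows tested, 4253 were higher in SP1 P28 (25.5%) and 3492 lower (20.9%) by edgeR at an adjusted p under 0.05. The balance turns with the low-count filter, since 2987 of these windows reached its level in the SP1 P28 animals alone. Among the 11191 that reached it in the Syn1Cre animals, 1590 were higher and 3455 lower, and with no filter 3707 were higher and 6929 lower of 216440. Of the higher windows, 56.2% held a listed start site, against 4.73% of the lower windows and 24.3% of all tested. The median distance to a start was 0 kb for higher windows and 74.6 kb for lower ones. Windows over 10 kb from any start made up 82.4% of the lower windows (2877), 18.8% of the higher (799) and 55.5% of all tested. Of the lower windows 68.4% lay inside a gene with no gene end in them, against 45.9% of all tested, and 22.4% outside genes, close to the 21.4% of all tested. The lower windows held 4.88 to 6.39% of insertions in the SP1 P28 animals and 12.5 to 13.9% in the Syn1Cre animals. In the animals outside the test they held 5.48 to 6.12% (SP1 P10) and 13.0 to 13.3% (C57bl6J). The limit of the pools shared by SP1 P10 and SP1 P28 holds here too.

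Among windows at or above the median count, the highest held the gene Relb, a subunit of NF-kB, at chr7:19620001-19630000. Its counts were 55.0, 106, 61.8 and 26.1 CPM in SP1 P28 and 0 in all 6 Syn1Cre animals, so the level was at least 82.0-fold higher against a floor of 3 insertions over the Syn1Cre group. The window of Paqr3 had a log2 fold change of 6.29 ± 0.35 (SE; edgeR adjusted p = 3.03e-11). Prx, the Schwann cell protein periaxin, had 245, 340, 292 and 228 CPM in its window against 0 to 7.05, a log2 fold change of 5.98 ± 0.30. The window at chr15:76660001-76670000 with Cyhr1, Kifc2 and Foxh1 had one of 5.82 ± 0.36. These windows reached the filter's level in the SP1 P28 animals alone.

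The lowest window under the same limit lay inside Foxp2, a forkhead factor of deep-layer neurons, at chr6:14920001-14930000. It had 0, 0, 5.61 and 1.87 CPM in SP1 P28, which is 2 insertions in all, and 26.4 to 51.7 in Syn1Cre, spread over 50 TTAA sites. By edgeR the log2 fold change came to -4.22 ± 0.57 (SE; adjusted p = 4.05e-06), and no animals overlapped. A window at chr13:83450001-83460000, 44.0 kb from Mef2c and in no protein-coding gene, had 4.23, 0, 0 and 3.73 against 34.6 to 49.3, a log2 fold change of -3.74 ± 0.47. Another outside genes, at chr1:55950001-55960000 and 196 kb from Plcl1, had 21.2, 0, 16.8 and 3.73 against 63.5 to 133 (-3.21 ± 0.44). SP1 P10 animals had 0 to 23.5 CPM in the Foxp2 window and 0 to 32.2 in that near Plcl1.

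The other named windows lay in or near 4 further genes. Foxp1, a forkhead factor close to Foxp2, and Celf2, an RNA-binding splicing factor, each held a window with a log2 fold change of -3.16 (SE 0.55 and 0.53). A window 507 kb from Nr4a2, a nuclear receptor, had one of -3.05 ± 0.42 and a window 14.5 kb from Gcg, the glucagon gene, one of -2.99 ± 0.37. At all of the lower windows named here the groups did not overlap.

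Lower windows were mostly short stretches. They formed 2343 runs, of which 1747 were single windows and 16 spanned at least 100 kb. The longest run covered 180 kb of Phactr1, a gene for an actin and phosphatase-binding protein, with a mean per window of 23.2 ± 8.01 CPM in SP1 P28 (SD, n = 4) and 50.5 ± 4.38 in Syn1Cre (SD, n = 6). Runs of 140 kb lay in Sox5, a factor of deep-layer neurons, in Robo2, a receptor of Slit guidance cues, and in Tenm3, a teneurin. Syn1Cre levels there were 2.64, 2.99 and 2.25 times the SP1 P28 levels. A run of 130 kb in Csrnp3 had a ratio of 2.39. Of the 16 long runs, 1 held no gene. The higher windows formed 3477 runs, of which 2918 were single windows and 1 reached 100 kb.

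**Figure D5:**
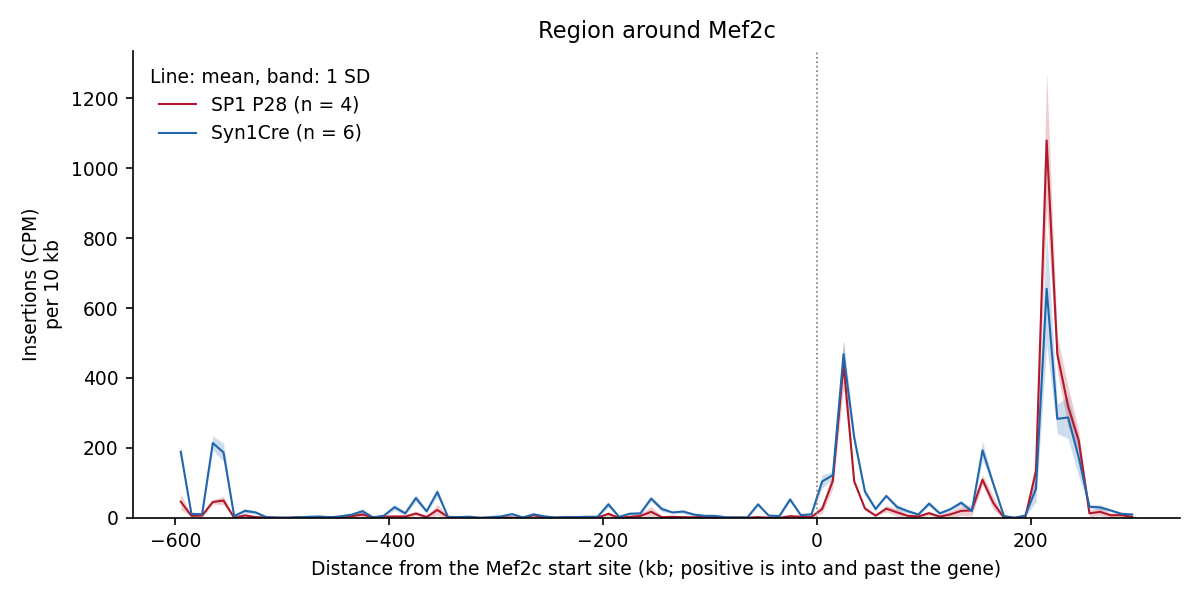
Mean normalised insertion count (CPM, line, with 1 SD as a band) in 10 kb bins around Mef2c (kb from its start site), for SP1 P28 (n = 4) and Syn1Cre (n = 6). In the bin from -570 to -560 kb Syn1Cre has 214 CPM and SP1 P28 45.4, while at 210 to 220 kb from the Mef2c start SP1 P28 has 1079 and Syn1Cre 655.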

How the data were processed

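Calling card insertions were read from cortex RNA, per the labels' protocols. The authors deposited 1 table per animal with no header, combined from 10 cortex pieces; each line gives a position of width 4, a read count and a strand. Read counts per insertion are as deposited by the authors, not normalised. Build mm10 and the tools Novoalign and Bowtie2 are named in the submitters' processing notes, without roles or versions. Read filters are not given in the sources used here.

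Lines on chromosomes 1 to 19 were counted as insertions, so a position can count up to 10 times on each strand per animal. Among the named promoters the most at 1 site in 1 SP1 P28 animal was 18 lines, at Lims1. Protein-coding genes and start sites came from RefSeq tables of GRCm38.p6. Of 20665 genes, 16457 had a listed start, none of them on chromosome 18, and the others were counted at either gene end. Classes outside genes use the distance to the nearest gene span, since starts were not listed for all genes. Promoters, gene ends, loci (gene span with 10 kb on each side) and 10 kb windows were compared with edgeR 4.0.16 (glmQLFTest, a quasi-likelihood test, R 4.3.3) on the 4 SP1 P28 and 6 Syn1Cre animals, with filterByExpr and Benjamini-Hochberg adjustment at 0.05. Library size was the insertions on these chromosomes times the TMM factor of the windows for every kind of feature. The standard error is the log2 fold change over the square root of F. Shares were compared by exact two-sided permutation over 210 splits, with Benjamini-Hochberg adjustment over 8 classes. The depth of 108965 to 1364948 insertions per animal limits precision at single promoters.

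On simulated counts with 200 features changed 3-fold, the test recovered 74.5% of changed promoters, 66.5% of windows, 90% of loci and 75.5% of gene ends; false calls were 2.61%, 7.64%, 3.74% and 3.21% of calls. Named promoters and windows passed the threshold, had groups that did not overlap and a mean count at or above the median. They were the 12 highest and 5 lowest promoters and the 5 highest and 8 lowest windows by log2 fold change, skipping neighbours within 2 kb or 200 kb, with the 5 promoters of highest SP1 P28 level and the 5 longest runs of lower windows (gaps of 1 window allowed). In each class list the highest and lowest tested members were named, with further members named after their values were seen. The members and lists were chosen with earlier results of these data known. Alternatives were DESeq2 1.42.0, no TMM factor, no filter, distinct positions, at least 2 reads, thinning to 106446 insertions, other widths, parts of the control group, a replicate block and each animal left out. Tests of gene ends and the alternatives for the other classes were added after seeing the data. A few items that the naming rule chose are not reported here.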

Additional observations from a re-analysis of the deposited data

Results flagged for a closer look

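In 92 groups of animals examined for a value far from the others of its group, 7 had one, where chance flags about 1 in 20 (4.60). At the promoter of Peli3, SP1 P28 animal 2 had 98.1 CPM, against 57.8 to 61.8 in the others. At Add3, Syn1Cre animal 5 had 110 CPM, against 45.8 to 68.3, still below the lowest SP1 P28 animal. At the gene ends of Foxh1 the same animal had 9.40, against 1.17 to 3.29, and its share of insertions 50 to 200 kb from a gene was 9.03%, against 9.65 to 9.85%. Ankrd35 had 3.85 CPM in Syn1Cre animal 2, against 0 to 0.881. In the window near Mef2c, Syn1Cre animal 3 had 49.3 CPM, against 34.6 to 40.0. SP1 P28 animal 4 held 11.5% of its insertions up to 10 kb from a gene, against 10.4 to 10.5% in the others.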

How the results depend on the processing

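The start-site difference of 11.3 percentage points kept its direction and stayed past the threshold in 18 of 18 alternatives, between 6.98 (a width of 500 bases) and 13.6 points (2 kb), and between 10.5 and 12.4 with 1 animal left out. The shares in gene bodies, at genes with no listed start and beyond 50 kb from a gene also kept theirs in 16 of 16. The 3′ end difference lost the threshold with at least 2 reads (0.135 points), thinned animals (0.158) and Syn1Cre animals 1 to 3 as controls (0.0834), and ran from 0.125 to 0.179 with 1 animal left out. Up to 10 kb from a gene, at least 2 reads gave 0.935 points and Syn1Cre animals 1 to 3 gave 0.568, neither past the threshold. From 10 to 50 kb the difference ran from -1.23 to -0.719 with 1 animal left out. Of 2411 promoters, 2037 were called in all. No filter gave 3704, distinct positions 228, at least 2 reads 1287, thinning 78 and a width of 500 bases 1113. Window calls, 7745 in all, were 3134 with distinct positions, 4963 with at least 2 reads and 472 thinned. Locus calls, 5748 in all, were 3444 with distinct positions, 1528 thinned and 2727 without flanks. Gene end calls, 2562 in all, were 3946 with no filter, 292 with distinct positions, 1681 with at least 2 reads and 89 thinned. Fewer features or fewer insertions enter several of these, and other causes were not tested. With 1 animal left out the calls were 1751 to 2284 promoters, 6373 to 9348 windows, 5108 to 6153 loci and 2202 to 2862 gene ends. Without the TMM factor the median log2 fold change moved from 1.86 to 2.02 for promoters, from -0.03 to 0.10 for windows and from 0.28 to 0.42 for loci. Same-numbered animals did not deviate together (correlations of -0.0480, -0.00597, -0.0731 and 0.0393), so the numbers do not pair them. With the replicate block the start-site difference was 11.4 points and the calls were 2048 promoters, 7377 windows, 5425 loci and 2581 gene ends. Of 2573 recomputed values for 143 named features, 2452 kept direction and call, 90 lost the call, 31 gained it and 0 reversed. Depth limits single features: thinned to 106446 insertions, the animals left 96 of 2411 promoters and 104 of 3275 gene ends to test.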

Other observations

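At gene ends, which take in the 4208 genes with no listed start, immediate early genes had 4 of 5 tested members higher, with Jund at a log2 fold change of 3.71 ± 0.38 (SE), and 1 lower, Egr3 at -2.25 ± 0.46. Over all gene ends tested 76.0% were higher and 2.26% lower, and without any 1 of the 6 Syn1Cre animals only 2 of the immediate early genes were higher. Projection neuron transcription factors had 6 of 14 gene ends lower and 4 higher, with Nfib at 2.09 ± 0.28.

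Housekeeping classes had modest changes over whole loci. Cytoplasmic ribosomal proteins had 17 of 42 loci higher and 3 lower, splicing factors 18 of 47 and 5, and chaperonins and heat shock proteins 25 of 55 and 2, beside 36.4% higher and 12.6% lower over all loci. Without SP1 P28 animal 4 the chaperonins had 14 of 60 higher and 4 lower, without Syn1Cre animal 1, 2, 3 or 4 15 higher, and under DESeq2 15 of 55. The splicing factors had 1 or 2 loci lower without any 1 of the SP1 P28 animals. Sp and Klf factors had 12 of 20 loci higher and none lower, but 7 of 19 higher without Syn1Cre animal 1, 3 or 4, with 2, 3 and 3 lower, and 9 higher and 3 lower without animal 2. Ubiquitin-conjugating enzymes had 5 higher and 4 lower of 28, with a median log2 fold change of 0.07 that was -0.08 under DESeq2, and with 1 animal left out 1 to 4 were higher and 1 to 6 lower.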
